A study of Rattus norvegicus with 6 samples.

Results

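The aryl hydrocarbon receptor and oxidative stress genes described here are 9 genes listed by Ensembl identifier, of the 17581 genes in the deposited count table: Ahr, Cyp1a1, Cyp1b1, Nqo1, Nfe2l2, Hmox1, Cat, Sod1 and Sod2. All 9 identifiers were present in the table. The symbols came with the list, because the gene table used here carries no Ensembl identifiers that could check them. The samples were forebrains of Wistar rat fetuses at gestational day 18, labelled male, whose dams had eaten a treat carrying FM550 or its vehicle once a day for 10 days from gestational day 9. The growth protocol, however, speaks of tissue from each sex, so whether all 6 fetuses were male was not checked here. FM550 is a flame-retardant product that mixes brominated compounds with aryl phosphate esters. The 3 control fetuses came from dams given vehicle (0 µg of FM550 per day), and the 3 high-dose fetuses from dams given 1000 µg per day, put by the protocol at roughly 3.3 mg per kg body weight daily. Dams were dosed by an average colony weight and not by their own, the fetal brain was exposed only through the dam, and the labels do not say whether the fetuses of a group came from separate litters.

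The aryl hydrocarbon receptor (AHR) is a transcription factor that waits in the cytoplasm until it binds flat aromatic compounds such as dioxins or polycyclic hydrocarbons. It then enters the nucleus, pairs with its partner ARNT and raises the transcription of a battery of detoxification genes, of which Cyp1a1 is the classic reporter. NRF2, the product of Nfe2l2, is held at low levels by KEAP1 and accumulates when electrophiles or oxidants modify KEAP1. Accumulated NRF2 then raises genes such as Nqo1 and Hmox1, while superoxide dismutases and catalase remove superoxide and hydrogen peroxide in most cells.

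None of the members passed the threshold in high-dose against control forebrain, and the largest differences were in Cyp1b1, which had lower values, and Nqo1, which had higher values. Of the 9 genes, 8 passed the low-count filter and were tested, and Cyp1a1 did not. At a Benjamini-Hochberg adjusted p under 0.05 (edgeR quasi-likelihood test), 0 of the 8 were called, where 0.00734% of all 13617 tested genes were (1 gene). At an unadjusted p under 0.05, 2 of the 8 qualified, where 7.4% of all tested genes did. They were Cyp1b1 with lower values, as in 4.33% of all tested genes, and Sod2 with higher values, as in 3.07%. DESeq2 called 1 of the 8 at an adjusted p under 0.05, against 1.28% of the genes to which it gave an adjusted p, and limma-voom called 0 of the 8, with 3 members each at an unadjusted p under 0.05 (5.48% and 7.51% of all genes). The fitted changes were negative in 5 and positive in 3 of the 8 members. Their median was -0.05 on the log2 scale, beside 0.00 over all tested genes, and the median size of change was 0.26, beside 0.09. The median standard error was also larger in the members, at 0.17 beside 0.13. Since the members were chosen with earlier results of these data known, the difference in size was not tested. Neither the sign of the median change nor the split was stable. Over the 14 alternatives the median ran from -0.12 (control replicate 3 left out) to 0.02 (high-dose replicate 2 left out) and was above 0 in 3 of them, and the members divided into 4 positive and 4 negative in 4 of them.

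Library totals ran from 10525138 to 27100394 counts, the extremes being high-dose libraries. Control replicate 3 and high-dose replicate 2 tended to deviate from their group means in the same direction across genes. Their correlation of deviations was 0.41, the highest of the 9 pairs between groups. With 3 libraries per group these 9 values depend on one another, and the highest was not tested. High-dose replicate 2 held the lowest of the 6 values in 4 of the 8 tested members (Cyp1b1, Hmox1, Cat and Sod1), where it did so in 24.3% of all tested genes, and the highest in 1 (Ahr; 27.1% of all tested genes). Among controls, replicate 3 was the lowest in 5 of the 8 (Nqo1, Nfe2l2, Hmox1, Cat and Sod2), where 39.4% of all tested genes had their lowest control value there. Each tested member is therefore also given below without these libraries. They were picked from these same data, so a pass of the threshold without them is no separate evidence. The labelled tissue was not checked against forebrain markers, since none could be looked up by identifier.

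Ahr (ENSRNOG00000004342) encodes the receptor itself, and its transcript was sparse, with 29 to 128 counts per library. Values below are in counts per 1000000 (CPM), which scale each library to a common total and suit comparison of one gene across libraries, not of genes of different length. Ahr was at 5.85, 5.27 and 5.84 CPM in control replicates 1, 2 and 3, and at 3.29, 7.06 and 2.74 CPM in high-dose replicates 1, 2 and 3. High-dose replicates 1 and 3 lay below every control and high-dose replicate 2 above every control, so the high-dose group spanned the controls. The means were 5.65 ± 0.33 CPM in controls and 4.37 ± 2.35 CPM at the high dose (SD, n = 3 each). The controls varied by 5.82% of their mean, less than the 11.3% that counting error alone would give at these counts, whereas the high-dose libraries varied by 53.8% against 13.3%.

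In the fit, the high-dose level of Ahr was 78.3% of the control level, with a 95% confidence interval of 46.2% to 133% (edgeR adjusted p = 0.999). The interval covers a lower level, a higher level and no change. Among the 500 tested genes nearest to Ahr in level, 90.0% had a smaller spread between libraries of a group. Without high-dose replicate 2 the log2 fold change of Ahr was -0.88 with a standard error of 0.21 (edgeR unadjusted p = 0.00272, adjusted p = 0.207). Leaving out control replicate 3 as well gave -0.84 (adjusted p = 0.0806), from 2 libraries per group. In the other direction, it was -0.16 without high-dose replicate 1 and -0.15 without high-dose replicate 3, beside -0.35 with all libraries (edgeR adjusted p of 0.956 and 0.997), and it was -0.33 without control replicate 3 alone.

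Cyp1a1 (ENSRNOG00000019500), which encodes the cytochrome P450 that AHR ligands induce most strongly in many tissues, was close to undetected in both groups. The counts were 1, 1 and 2 in control replicates 1, 2 and 3 and 0, 2 and 2 in high-dose replicates 1, 2 and 3. The library with no count was the deepest, where a count of 0 allows up to 0.110 CPM (3 counts, counting error only). Summed over libraries, Cyp1a1 had 4 counts in each group, which is 0.0940 CPM in controls with an exact Poisson 95% interval of 0.0256 to 0.241, and 0.0714 CPM at the high dose with an interval of 0.0195 to 0.183 (totals unscaled). The ratio of high-dose to control was 0.759, with an exact interval of 0.141 to 4.08, both covering counting error only. A difference inside that interval was not detectable at this depth. The direction also depended on the pooling. Averaged over libraries in scaled CPM, as for the other genes, the means were 0.0979 CPM in controls and 0.0999 CPM at the high dose. In the fit without a low-count filter Cyp1a1 had an edgeR adjusted p of 0.996.

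Cyp1b1 (ENSRNOG00000040287) encodes a related P450 that oxidizes steroids, retinoids and aromatic hydrocarbons, and that is expressed in vascular and mesenchymal cells as well as being an AHR target. Its values were lower in each high-dose library than in any control. Cyp1b1 stood at 34.5, 32.4 and 38.3 CPM in control replicates 1, 2 and 3, and at 18.3, 18.2 and 25.8 CPM in high-dose replicates 1, 2 and 3, on 273 to 559 counts. The groups were separated by the gap between 25.8 and 32.4 CPM, and high-dose replicate 3 lay nearest to the controls. Such a separation downward was found in 1 of the 8 tested members and in 6.52% of all tested genes. The means were 35.1 ± 3.00 CPM in controls and 20.8 ± 4.39 CPM at the high dose (SD, n = 3 each).

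The fitted high-dose level of Cyp1b1 was 58.7% of control, with a 95% confidence interval of 46.2% to 74.7%. On the log2 scale the change was -0.77 ± 0.15 (standard error; edgeR unadjusted p = 0.000837, adjusted p = 0.133), which placed Cyp1b1 at rank 86 of the 13617 tested genes by p and at rank 444 by size of change. The result did not pass the adjusted threshold with edgeR. It did with DESeq2 (log2 fold change -0.76, adjusted p = 0.00153) and with 1 surrogate variable in the edgeR model (-0.78, adjusted p = 0.0149), a fit in which 2.04% of all tested genes were called. With only control replicate 3 or only high-dose replicate 2 left out it did not (-0.70 and -0.69, adjusted p of 0.192 and 0.188). It did without both (-0.64, adjusted p = 0.0367), where 3.02% were called. The surrogate variable was negative in those same libraries (-0.73 in high-dose replicate 2, -0.37 in control replicate 3) and positive in all others. The surrogate fit and the fit without both are therefore not separate checks. Over all 14 alternatives the direction was the same, the log2 fold change ran from -0.95 to -0.64 and the adjusted p from 0.00153 to 0.420. In bulk tissue a lower level of a transcript in each cell and fewer of the cells that carry it cannot be told apart. Markers of vascular and meningeal cells could not be looked up, so their part in the Cyp1b1 result was not tested. In the RefSeq table (GRCr8, not the rn6 build named for the counting) the span of Cyp1b1 overlaps that of Rmdn2. Since the strand setting and annotation of the counting are not given, it is not known whether reads of the pair were separated. The RefSeq overlaps and copy named below come from the same table.

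**Figure D1:**
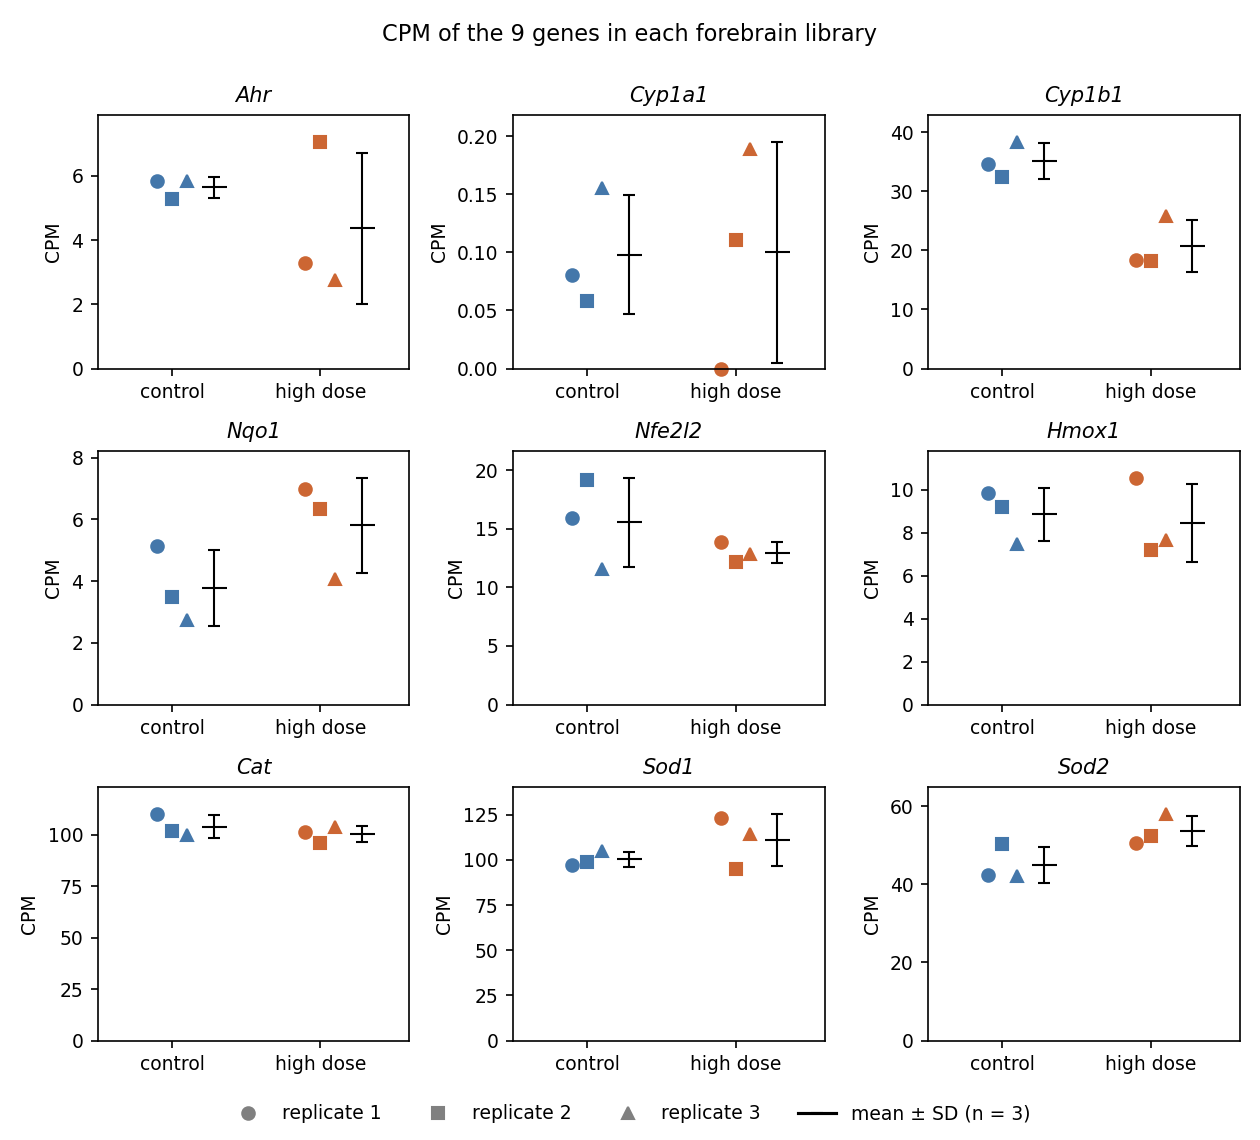
Level in CPM (y axis, starting at 0, scaled for each gene) of the 9 genes in each control (blue) and high-dose (orange) library, with symbols for replicates 1 to 3 and the group mean and SD (black, n = 3). The high-dose values of Cyp1b1, at most 25.8 CPM, lie below the lowest control at 32.4 CPM, Sod2 shows the opposite order by a narrow margin, and high-dose replicate 2 of Ahr lies apart from the other high-dose libraries.

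AHR and ARNT bind the xenobiotic response element, whose core reads GCGTG, and NRF2 binds the antioxidant response element, searched here as TGACNNNGC. Both strands of the 250 bases before each gene's listed start were searched in the RefSeq promoter table (GRCr8). It holds 7 of the 9 members and has no entry for Cyp1a1 and Hmox1. GCGTG was found in 3 of these 7, Cyp1b1, Nqo1 and Sod2, and in 25.9% of the 33469 promoters of the same length. A longer form, TNGCGTG, was found in 1 of the 7, Cyp1b1, and in 4.09% of all promoters. This longer form is not marked apart in the windows. TGACNNNGC was found in 1, Sod2, and in 10.1% of all promoters. Sequence outside these 250 bases was not searched, so a gene without a match here may hold a match elsewhere. All 3 windows with a match are shown, with matches in capitals on the gene's own strand, 5′ to 3′. Whether a match goes with a change in level was not tested.
Cyp1b1, chr6:21094315-21094564, plus strand: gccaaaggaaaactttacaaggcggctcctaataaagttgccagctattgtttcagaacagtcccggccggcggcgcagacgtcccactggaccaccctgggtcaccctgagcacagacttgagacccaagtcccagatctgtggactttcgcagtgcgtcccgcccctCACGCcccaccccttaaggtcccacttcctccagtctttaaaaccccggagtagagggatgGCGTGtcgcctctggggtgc
Nqo1, chr19:52220268-52220517, minus strand: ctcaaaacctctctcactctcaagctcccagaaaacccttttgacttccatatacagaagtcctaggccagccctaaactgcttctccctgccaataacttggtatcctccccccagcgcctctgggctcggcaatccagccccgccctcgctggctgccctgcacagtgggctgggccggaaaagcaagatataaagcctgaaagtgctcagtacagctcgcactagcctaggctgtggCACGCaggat
Sod2, chr1:50050169-50050418, minus strand: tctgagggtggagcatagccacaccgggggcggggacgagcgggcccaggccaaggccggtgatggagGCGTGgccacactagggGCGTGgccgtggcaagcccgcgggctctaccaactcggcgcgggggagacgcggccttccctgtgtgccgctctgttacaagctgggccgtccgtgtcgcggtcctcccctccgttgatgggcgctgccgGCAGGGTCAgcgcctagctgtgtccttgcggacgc
In Cyp1b1 the core GCGTG is read once on each strand, with its first base 81 and 20 bases before the start. CACGC is its reverse complement. In Nqo1 GCGTG is read on the opposite strand 10 bases before the start. In Sod2 it is read on the gene's strand at 182 and 165 bases before the start, and GCAGGGTCA, at 35 bases, is the reverse complement of a TGACNNNGC match. At least 2 matches to GCGTG, as in Cyp1b1 and Sod2, were found in 8.12% of all promoters. Of the GCGTG matches shown, only that at 20 bases in Cyp1b1 lies within a TNGCGTG match. The table gives 1 start per gene, and the RefSeq span of Cyp1b1 begins before its window. The distances given for Cyp1b1 therefore count from the listed start, not from the start of that span. These matches describe letters in the windows shown and do not locate binding.

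Nfe2l2 (ENSRNOG00000001548), the gene of NRF2, was at 15.9, 19.1 and 11.6 CPM in control replicates 1, 2 and 3, and at 13.9, 12.1 and 12.9 CPM in high-dose replicates 1, 2 and 3. The high-dose values all fell inside the range of the controls, which was the wider of the 2 groups. Its controls varied by 24.3% of their mean and its high-dose libraries by 6.88%, beside about 7.02% and 6.96% from counting error alone. The fitted high-dose level was 83.2% of control, with a 95% confidence interval of 62.1% to 112% (edgeR adjusted p = 0.960). The value depended on which control was left out. The log2 fold change was -0.09 without control replicate 2, the highest control, and -0.44 without control replicate 3, the lowest (edgeR adjusted p of 1.00 and 0.373), beside -0.26 with all libraries. Without high-dose replicate 2 it was -0.22, and without that library and control replicate 3 it was -0.38.

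Nqo1 (ENSRNOG00000012772) encodes a quinone reductase and is a target of both AHR and NRF2. It was at 5.13, 3.48 and 2.73 CPM in control replicates 1, 2 and 3, and at 6.99, 6.34 and 4.07 CPM in high-dose replicates 1, 2 and 3, on 35 to 191 counts. High-dose replicates 1 and 2 lay above all controls, whereas high-dose replicate 3 lay below control replicate 1, so the groups overlapped. The means were 3.78 ± 1.23 and 5.80 ± 1.54 CPM (SD, n = 3 each), and the fitted high-dose level was 157% of control with a 95% confidence interval of 99.6% to 247%. On the log2 scale the change was 0.65 ± 0.29 (standard error; edgeR unadjusted p = 0.0518, adjusted p = 0.684). Over the 14 alternatives it ran from 0.45 to 0.91, always positive, with adjusted p from 0.274 to 1.00. It was 0.47 without control replicate 3, 0.60 without high-dose replicate 2 and 0.45 without both. Cyp1b1 and Nqo1 were the 2 members whose change was at least 0.5 in size on the log2 scale, as were 7.68% of all tested genes, and they differed in sign.

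Hmox1 (ENSRNOG00000014117) encodes the inducible heme oxygenase, which breaks heme down to biliverdin, iron and carbon monoxide. It was at 9.85, 9.22 and 7.48 CPM in control replicates 1, 2 and 3, and at 10.5, 7.17 and 7.67 CPM in high-dose replicates 1, 2 and 3. Both the lowest and the highest of its 6 values belonged to high-dose libraries. Its fitted level at the high dose was 96.4% of control, with a 95% confidence interval of 70.6% to 132% (edgeR adjusted p = 0.999), and its sign changed in 4 of the 14 alternatives. The log2 fold change of Hmox1 was -0.16 without control replicate 3, 0.07 without high-dose replicate 2 and -0.02 without both, beside -0.05 with all libraries. A RefSeq gene model without a name, LOC134483111, overlaps Hmox1.

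Cat (ENSRNOG00000008364) encodes catalase, which splits hydrogen peroxide, and it was the member with the narrowest interval. Cat was at 110.0, 102 and 99.8 CPM in control replicates 1, 2 and 3, and at 101, 95.9 and 104 CPM in high-dose replicates 1, 2 and 3. All 6 libraries lay between 95.9 and 110.0 CPM, and the groups overlapped. The fitted high-dose level was 96.5% of control, with a 95% confidence interval of 86.7% to 107% (edgeR adjusted p = 0.999). The log2 fold change of Cat was -0.05 with all libraries, -0.08 without control replicate 3, -0.02 without high-dose replicate 2 and -0.05 without both. Another RefSeq model without a name, LOC134486130, overlaps Cat.

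Sod1 (ENSRNOG00000002115) encodes the copper and zinc superoxide dismutase of the cytosol. It was at 97.0, 99.1 and 105 CPM in control replicates 1, 2 and 3, and at 123, 95.1 and 114 CPM in high-dose replicates 1, 2 and 3. High-dose replicates 1 and 3 were above every control and high-dose replicate 2 below every control, the opposite of their order for Ahr. At the high dose the fitted level was 111% of control, with a 95% confidence interval of 94.7% to 129% (edgeR adjusted p = 0.948). Without high-dose replicate 2 the log2 fold change was 0.25 in place of 0.15 (edgeR adjusted p = 0.320), and without high-dose replicate 1 it was 0.06 (adjusted p = 0.944). Without control replicate 3 alone it was 0.18. With control replicate 3 and high-dose replicate 2 both left out it was 0.28 and passed the threshold (adjusted p = 0.0347), in the fit that called 3.02% of all genes. For Sod1 these libraries held the highest control value (105 CPM) and the lowest high-dose value (95.1 CPM). Leaving them out therefore widens the difference by selection, and the pass is no separate evidence of a change.

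Sod2 (ENSRNOG00000019048) encodes the manganese superoxide dismutase of mitochondria, and its high-dose values were all above its control values. Sod2 was at 42.5, 50.3 and 42.2 CPM in control replicates 1, 2 and 3, and at 50.5, 52.3 and 58.0 CPM in high-dose replicates 1, 2 and 3. The margin between the groups was narrow, since control replicate 2 (50.3 CPM) and high-dose replicate 1 (50.5 CPM) were closer to each other than the counting error of either, 1.71 and 1.36 CPM. A separation upward was found in 1 of the 8 tested members and in 5.15% of all tested genes. At the high dose the fitted level was 119% of control, with a 95% confidence interval of 102% to 139%. On the log2 scale the change was 0.25 ± 0.10 (standard error; edgeR unadjusted p = 0.0351, adjusted p = 0.594). Its sign held over the 14 alternatives, with values from 0.19 to 0.34 and adjusted p from 0.186 to 0.999. The log2 fold change of Sod2 was 0.20 without control replicate 3, 0.26 without high-dose replicate 2 and 0.21 without both. The RefSeq table also names a pseudogene copy, Sod2-ps1, and whether its reads were counted apart is not given.

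**Figure D2:**
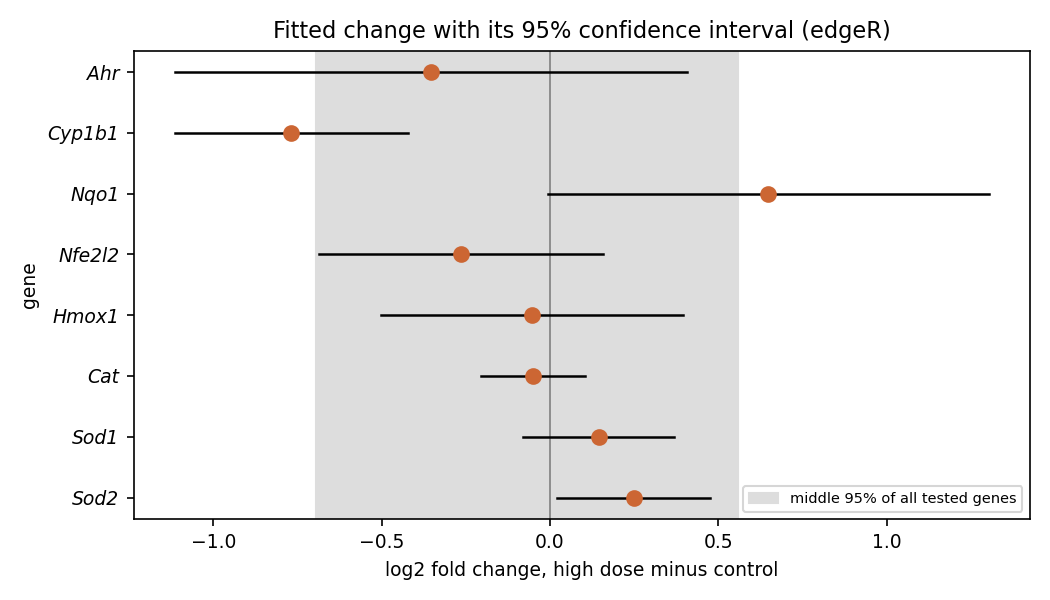
Fitted log2 fold change, high dose minus control (x axis), of the 8 tested genes (y axis), with points for the edgeR estimate and lines for its 95% confidence interval. The grey band spans the middle 95% of all 13617 tested genes, from -0.69 to 0.56, and only the estimates of Cyp1b1 (-0.77) and Nqo1 (0.65) lie outside it.

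The members thus differed in how much the data could show. The standard errors had a median of 0.17 on the log2 scale, beside 0.13 over all tested genes, and were smallest for Cat (0.07), Sod1 (0.10) and Sod2 (0.10). They were largest for Ahr (0.33) and Nqo1 (0.29), which had the fewest counts of the tested members. The high-dose libraries of these genes also varied more than counting error would give. Over the 8 members, the 95% intervals reached from 46.2% of control, the lower bound for Cyp1b1 and for Ahr, to 247%, the upper bound for Nqo1. Among the members described above as AHR targets, Cyp1b1 had lower and Nqo1 higher values, neither passing the adjusted threshold with edgeR, and Cyp1a1 was too rare to compare. Nfe2l2, which is also counted among AHR targets, had a fitted level of 83.2% of control, with a 95% confidence interval of 62.1% to 112%.

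**Figure D3:**
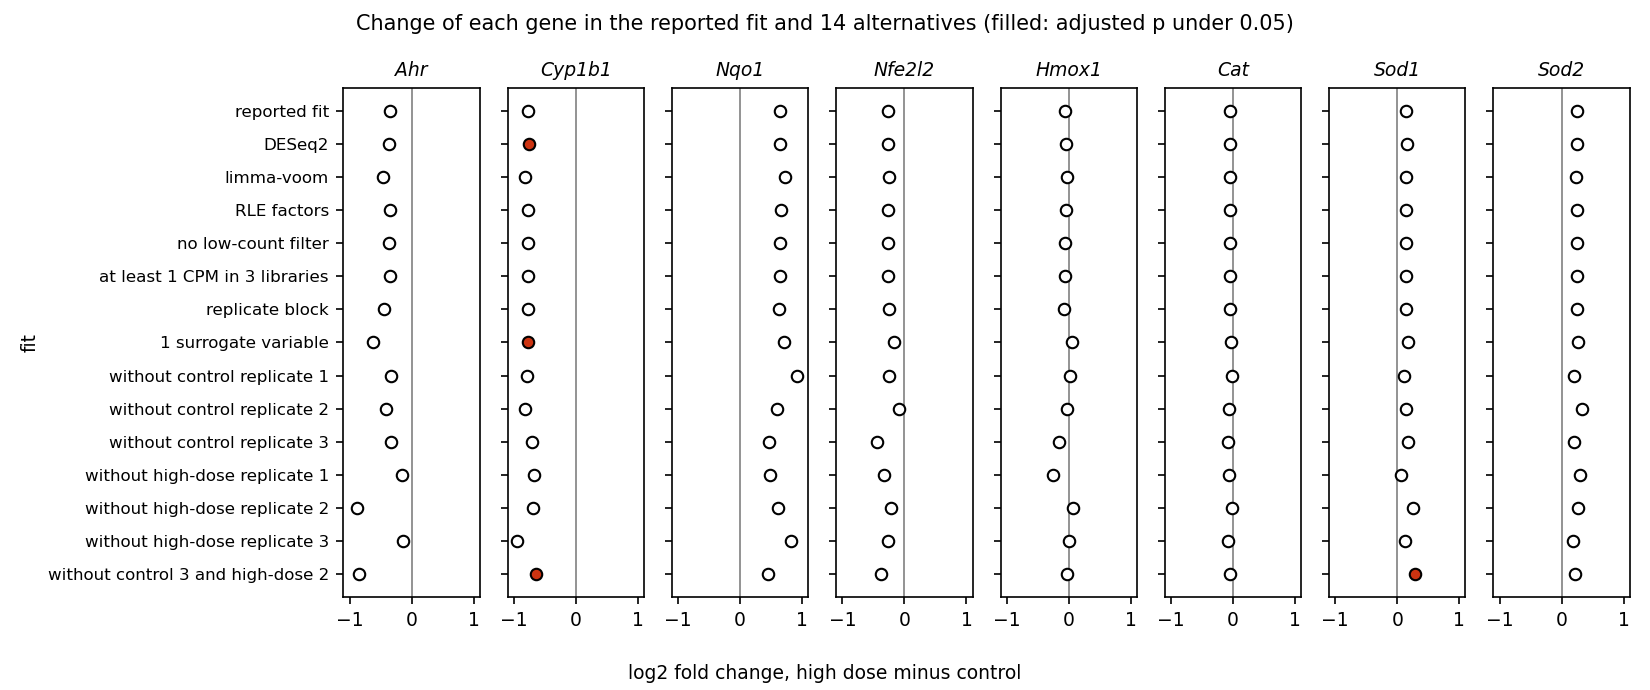
Log2 fold change, high dose minus control (x axis), of each of the 8 tested genes (panels) in the reported edgeR fit and in 14 alternatives (y axis), filled where the adjusted p was under 0.05. Cyp1b1 is filled in 3 alternatives and Sod1 in 1, Hmox1 lies on both sides of 0, and Ahr moves to -0.88 without high-dose replicate 2.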

How the data were processed

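The members and gene lists were chosen with earlier results of these data known. The deposited values are raw counts of reads for each gene, not normalized by the authors, and FastQC, STAR and HTSeq with genome build rn6 are named per the submitters' processing notes. Versions, annotation and strand setting of the counting: not given in the sources used here. The kit marks strand and selects poly(A) RNA, per the labels' protocols. Groups came from sample titles and columns from library names in the descriptions. Control replicates 1, 2 and 3 totalled 12457758, 17068121 and 13019956 counts, and their high-dose counterparts 27100394, 18408175 and 10525138.

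Counts of all genes were fitted with edgeR 4.0.16 (R 4.3.3, limma 3.58.1): filterByExpr (minimum count 10, minimum total 15), TMM scaling, robust quasi-likelihood F test with group as the only term, and Benjamini-Hochberg adjustment over 13617 genes with a threshold of 0.05. CPM used TMM-scaled totals, and log2 CPM a prior count of 2. Standard errors are the size of the log2 fold change over the square root of F. Intervals are at the 95% level. The fit was tested on simulated data. Alternatives were DESeq2 1.42.0, limma-voom, RLE factors, other low-count filters, a block for replicate number, 1 surrogate variable (sva 3.50.0, from CPM) and leaving out libraries. By rule all 9 members are named. Lists of other pathway genes and of cell type markers, and the search for genes of most alike pattern, were not run, since 0 of the 47357 genes in the RefSeq table (GRCr8) carry an Ensembl identifier. Since litters are not named, p-values reflect only how much these samples vary.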

Additional observations from a re-analysis of the deposited data

How the results depend on the processing

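The number of members past the adjusted threshold was 0 of 8 in the reported fit, 1 with DESeq2, 1 with 1 surrogate variable (Cyp1b1 in both) and 2 with control replicate 3 and high-dose replicate 2 both left out (Cyp1b1 and Sod1), and 0 with each single library left out. The libraries left out together were picked from these data, so the count without them is no separate evidence. Over all tested genes it was 1 in the reported fit, 198 with DESeq2, 26 with no low-count filter, 278 with 1 surrogate variable, 412 with those 2 libraries left out, and 0 to 24 with single libraries left out (24 without control replicate 3, 3 without high-dose replicate 1 and 10 without the second high-dose library). For these shifts the cause was not tested. Signs held in the 14 alternatives for the tested members except Hmox1, whose log2 fold change of -0.05 became 0.051 with 1 surrogate variable and ran from -0.258 to 0.0653 with single libraries left out. Depth limits Cyp1a1 most, with at most 2 counts per library. Ahr, Nqo1 and Hmox1 had the next fewest counts, but counting error was not their only spread. Their high-dose libraries varied by 53.8%, 26.5% and 21.5% of the mean, against 13.3%, 11.1% and 8.85% from counting error. In controls, Nqo1 and Hmox1 also varied by more than counting error, and Ahr by less.

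With a replicate block, 0 genes and 0 members passed (edgeR), and Cyp1b1 had an adjusted p of 0.191. In that fit 786 of the 13617 tested genes and 2 of the 8 members were at an unadjusted p under 0.05. The 2 members were Cyp1b1 and Nqo1, whereas in the reported fit they were Cyp1b1 and Sod2. Deviations of same-numbered libraries correlated at 0.227, -0.275 and -0.21. With 3 libraries per group these correlations depend on one another, so they cannot decide whether libraries were paired by number.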
